A study of Solanum tuberosum with 9 samples.

Results

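Starch is built in the plastids of the growing tuber, and 4 potato genes of its metabolism were followed here through 9 stolon libraries. They are AGPS1, for the small subunit of ADP-glucose pyrophosphorylase, and GBSS, for granule-bound starch synthase. The others are LOC102583115, for the starch synthase SS2, also named GBSS-II, and AMYA1, for an alpha-amylase. All 4 were chosen by name, and each is 1 row of the 25702 genes in the deposited tables. Stolons, underground stems that form tubers at their tips, were sampled, and those sequenced came from the potato variety Kexin 13. The plants were grown with a deficient nitrogen supply (AN0), a conventional supply (AN1) or an excess (AN2), with 3 libraries each. Nitrogen amount, plant age and stolon stage were not given in the sources used here. The labels do not state whether the 3 libraries of a treatment stem from different plants, so the spread that p-values rest on may not be that between plants.

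Background on the pathway orders the results. ADP-glucose pyrophosphorylase makes ADP-glucose, the glucosyl donor, in the first committed step of starch synthesis. The starch synthases then lengthen glucan chains: GBSS works inside the granule and makes amylose. Synthases such as SS2 and SS3 extend the chains of amylopectin, and branching enzymes add its side chains. Alpha-amylase cuts starch within its chains, and the glucan water dikinases, phosphorylases and disproportionating enzymes also act in starch turnover.

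Library totals lay between 30952622 and 38235348 counts. The libraries differed in genes that mark a tuber in formation, within treatments as well as between them. The 5 storage markers found of 7 listed (1 patatin, the main tuber storage protein, and 4 protease inhibitors) were detected in all libraries. Their summed level was 8222 to 43216 CPM in AN0, 29617 to 38742 CPM in AN1 and 1453 to 43867 CPM in AN2, where CPM are counts scaled to a fixed library total with TMM factors. The lowest sums belonged to AN2-3 (1453 CPM), AN0-1 (8222 CPM) and AN2-1 (11912 CPM). The protease inhibitor gene PIN-II (LOC102577839) did not follow the sum: it was highest in AN2-3 (841 CPM) and AN2-1 (649 CPM) and lowest in AN0-1 (120 CPM). For the 4 green-tissue markers found of 5 listed, the sum was 22.6 to 525 CPM in AN0, 9.51 to 47.5 CPM in AN1 and 60.5 to 308 CPM in AN2, with AN0-1 and AN2-3 highest. In AN0-3, AN1-1 and AN2-2 the chlorophyll-binding gene cab1 and both Rubisco genes of that list stood at 0 counts. In bulk tissue, fewer cells of a type and less RNA per cell cannot be told apart.

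GBSS and AGPS1 were among the most abundant transcripts of these stolons, and SS2 and AMYA1 lay about an order of magnitude lower. Levels of different genes are compared in the authors' FPKM, which divide by gene length. The median over the 9 libraries was 1032 FPKM for GBSS, 935 FPKM for AGPS1, 113 FPKM for SS2 and 105 FPKM for AMYA1. GBSS ranked between 23rd and 199th of all genes by FPKM in 8 libraries and 1435th in AN2-3. AGPS1 ranked between 46th and 170th in the same 8 libraries and 1588th in AN2-3. The ranges of GBSS and AGPS1, neighbours in this order, overlapped, and GBSS was the higher in 7 of 9 libraries. Those of SS2 and AMYA1 overlapped as well, with SS2 the higher in 5 of 9.

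**Figure D1:**
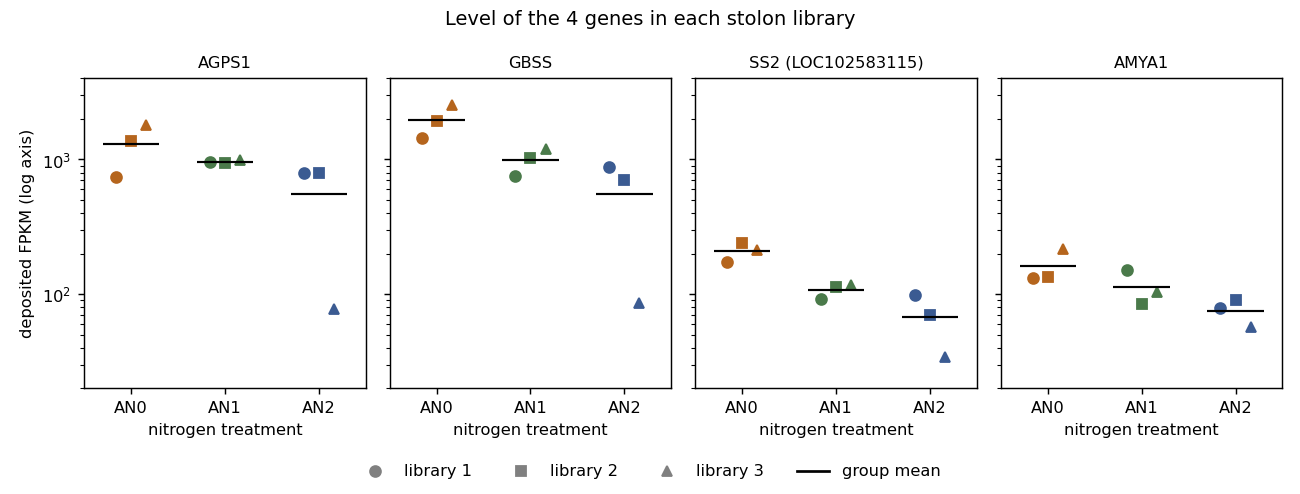
Deposited FPKM (log axis) of AGPS1, GBSS, SS2 and AMYA1 in each stolon library, by nitrogen treatment from deficiency (AN0) to excess (AN2), with 1 point per library and a line at the group mean. The AN2-3 library (triangle under AN2) lies lowest for all 4 genes, at 77.5 FPKM for AGPS1 and 86.1 FPKM for GBSS, while AMYA1 spans only 56.6 to 90.4 FPKM in AN2.

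For all 4 genes the group mean was highest in AN0, lower in AN1 and lowest in AN2. Such a stepwise fall of means was found for 22.6% of the 21223 genes tested, so the order alone is common. All 4 genes also had their lowest CPM in AN2-3, as did 12.8% of the genes tested.

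The small subunit gene AGPS1 was nearly level under conventional nitrogen and spread widely under the other supplies. Its CPM values, given here and below for libraries 1, 2 and 3 of each treatment in that order, were 1594, 3254 and 4296 for AN0, 2232, 2086 and 2288 for AN1, and 1486, 1878 and 140 for AN2. The AN1 libraries lay close together, AN0-1 was below them, and AN2-3 was the lowest by far. All AN2 values were under all AN1 values, which held for 9.26% of the genes tested, while AN0 overlapped with both. As deposited FPKM the means were 1302 ± 533 in AN0, 963 ± 26.4 in AN1 and 555 ± 414 in AN2 (SD, n = 3 each). The coefficient of variation was thus 40.9% in AN0, 2.75% in AN1 and 74.5% in AN2, and that of AN0 exceeded those of GBSS (28.1%), SS2 (16.2%) and AMYA1 (30.6%). Set against AN1, the log2 fold change was 0.47 ± 0.75 in AN0 and -0.91 ± 0.75 in AN2, and AN2 over AN0 gave -1.38 ± 0.76 (SE). None passed the edgeR test, with Benjamini-Hochberg adjusted p = 0.900, 0.695 and 0.345 in that order. The 95% interval for AN2 against AN0 ran from -3.09 to 0.32 and so held both a fall to a small part of the AN0 level and no change. Without AN2-3, whose storage sum was the lowest, the log2 fold change of AGPS1 was -0.86 ± 0.43 for AN2 against AN0 and -0.39 ± 0.42 for AN2 against AN1, with adjusted p = 0.303 and 0.810 (edgeR).

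AGPS1 was by far the main small subunit transcript. The related gene agpS2 (LOC102600909) ran from 17.9 to 30.4 FPKM over all libraries, a 1.69-fold range, while AGPS1 ran from 77.5 to 1796 FPKM, a 23.2-fold range. AGPS1 made up 96.9% to 99.0% of the summed small subunit FPKM in AN0, 97.2% to 98.0% in AN1 and 71.1% to 97.3% in AN2. The value of 71.1% was that of AN2-3, where agpS2 stood at 30.2 FPKM, near its highest. A further copy, agpS3 (LOC102582750), had 65 counts in AN2-3, 33 in AN0-1 and at most 8 elsewhere, and was not tested. The similar small subunit genes may share reads in a way that the sources do not describe, which leaves the value of each one uncertain.

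**Figure D2:**
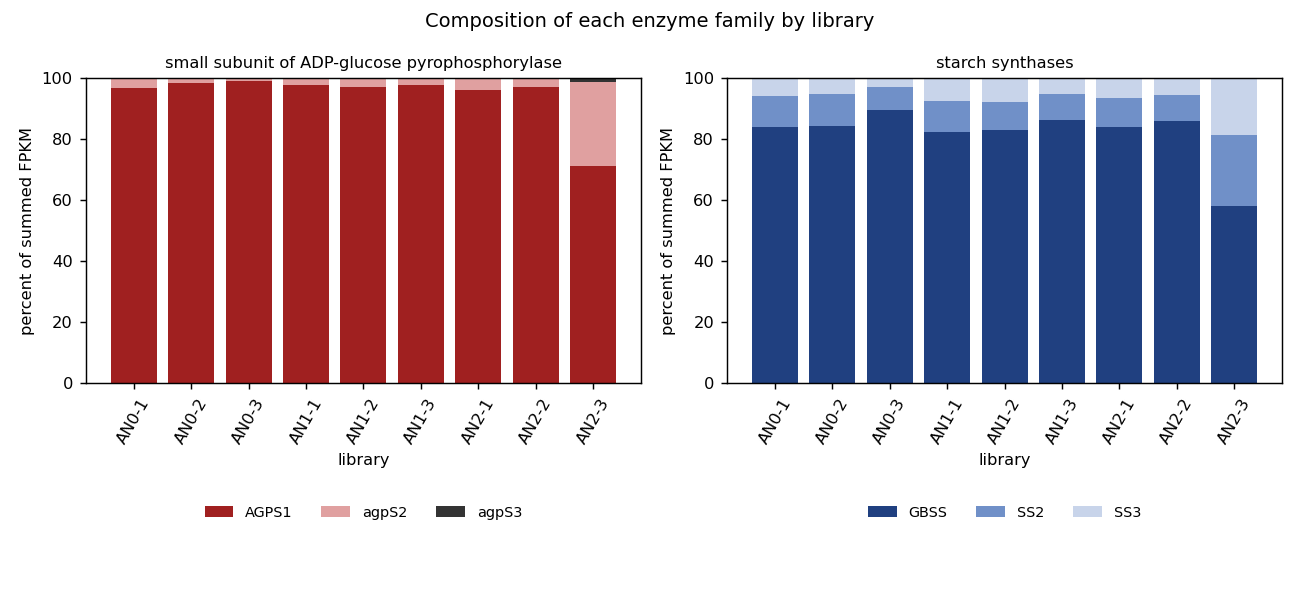
Share of the summed FPKM of the small subunit genes (left: AGPS1, agpS2, agpS3) and of the starch synthase genes (right: GBSS, SS2, SS3) in each library, in percent. In 8 libraries AGPS1 holds 96.3% or more and GBSS 82.5% or more, while in AN2-3 the shares are 71.1% and 58.1%.

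GBSS stood highest under nitrogen deficiency, without passing the test. Deficiency (AN0) gave 3735, 5466 and 7299.6 CPM, conventional supply (AN1) 2091, 2770 and 3328 CPM, and excess (AN2) 1957, 2020.1 and 187 CPM. Each AN0 value exceeded every AN1 value, a pattern seen in 9.54% of the genes tested. On the CPM scale AN2 lay below AN1 without overlap, like 9.26% of genes, and below AN0, like 10% of genes. In FPKM, which carry no TMM factor, AN2 and AN1 overlapped: AN2-1 stood at 876 FPKM, against 752 FPKM in AN1-1. Group means were 1963 ± 551 FPKM in AN0, 993 ± 224 FPKM in AN1 and 556 ± 415 FPKM in AN2 (SD, n = 3 each).

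AN0 over AN1 gave a log2 fold change of 1.01 ± 0.72, with a 95% interval from -0.60 to 2.62, and AN2 over AN1 gave -0.98 ± 0.72, from -2.59 to 0.64 (edgeR adjusted p = 0.688 and 0.641). For AN2 against AN0 it was -1.99 ± 0.74, from -3.64 to -0.33 (edgeR adjusted p = 0.163). DESeq2 called this last difference (adjusted p = 0.0274), as it did 11.8% of the genes to which it gave an adjusted p. Voom with quality weights called it as well (adjusted p = 0.0444), along with 27.7% of the genes tested. Over the alternatives its adjusted p reached 0.315. Without AN2-3 the value was -1.47 ± 0.40 (edgeR adjusted p = 0.101), and AN2 against AN1 became -0.46 ± 0.39 (edgeR adjusted p = 0.745).

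SS2 was the only one of the 4 genes that edgeR called, and it fell in AN2 against AN0. SS2 reached 445, 678 and 603 CPM with deficient nitrogen (AN0), 255, 300.5 and 322 CPM with conventional nitrogen (AN1) and 218, 199.9 and 74.3 CPM with excess (AN2). The 3 treatments did not overlap on this scale, where 9.54% of genes lay higher in AN0 than in AN1 without overlap, 9.26% lower in AN2 than in AN1 and 10% lower in AN2 than in AN0. Within them, AN0-1 and AN2-3 were the lowest libraries of their own groups. In FPKM AN2 and AN1 did overlap, with 98.2 FPKM in AN2-1 and 92.2 FPKM in AN1-1. The means were 208 ± 33.6 FPKM in AN0, 107 ± 13.0 FPKM in AN1 and 67.6 ± 32.0 FPKM in AN2 (SD, n = 3 each).

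The SS2 log2 fold change of AN2 against AN0 was -1.81 ± 0.40, a level 0.285 times that of AN0, with a 95% interval from -2.70 to -0.92 (edgeR adjusted p = 0.0427). This comparison called 3.65% of the genes tested, 1.3% as lower, and SS2 ranked 613th of all genes tested by p. The call held without AN2-3 (-1.46 ± 0.29, adjusted p = 0.0499), without AN2-2 (adjusted p = 0.0482) and without AN0-1 and AN2-3 together (-1.60 ± 0.25, adjusted p = 0.0312). It was lost without any 1 of AN0-1, AN0-2, AN0-3, AN1-1, AN1-2, AN1-3 or AN2-1, with adjusted p from 0.0554 to 0.131 (edgeR). Against AN1, SS2 had a log2 fold change of 0.98 ± 0.39 in AN0 (edgeR adjusted p = 0.405) and -0.83 ± 0.39 in AN2 (edgeR adjusted p = 0.386). Without AN2-3 that of AN2 was -0.49 ± 0.28 (edgeR adjusted p = 0.595).

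AMYA1, the starch-degrading enzyme gene, had the narrowest FPKM range of the 4 over the 9 libraries. The 3 AN0 libraries held 254, 285 and 468 CPM, those of AN1 315, 169 and 217 CPM, and those of AN2 131, 193 and 91.96 CPM. AN1 overlapped with both other treatments, and AN2 lay below AN0 without overlap, like 10% of genes. Its highest and lowest FPKM in any libraries differed 3.85-fold, against 6.96-fold for SS2, 23.2-fold for AGPS1 and 29.5-fold for GBSS. For each gene the lowest value was that of AN2-3. The coefficient of variation of AMYA1 was the largest of the 4 in AN1, at 30.6% against 2.75% (AGPS1), 22.6% (GBSS) and 12.1% (SS2). In AN2 it was the smallest, at 22.8% against 74.5%, 74.8% and 47.3%. Means were 161 ± 49.3 FPKM in AN0, 114 ± 34.8 FPKM in AN1 and 75.1 ± 17.1 FPKM in AN2 (SD, n = 3 each).

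None of the AMYA1 differences passed the edgeR test. Relative to AN1, the log2 fold change was 0.52 ± 0.37 in AN0, from -0.31 to 1.36 (adjusted p = 0.689), and -0.75 ± 0.37 in AN2, from -1.59 to 0.08 (adjusted p = 0.422). Between AN2 and AN0 it was -1.28 ± 0.38, from -2.12 to -0.43 (edgeR adjusted p = 0.0912). DESeq2 (adjusted p = 0.0161) and voom (adjusted p = 0.00712) called this last difference, and over the alternatives its adjusted p reached 0.246. Voom alone called AMYA1 lower in AN2 than in AN1 (log2 fold change -0.83, adjusted p = 0.0140), a comparison in which it called 24.8% of the genes tested. Without AN2-3 the edgeR value of AN2 against AN0 was -1.05 ± 0.39 (adjusted p = 0.184).

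Counted together, edgeR called 0 of the 4 genes in AN0 against AN1, where it called 0.0471% of all genes tested, and 1 of the 4 had an unadjusted p under 0.05 (10.8% of all genes). In AN2 against AN1 it called 0 of the 4, against 0.697% of all genes, and 0 had an unadjusted p under 0.05 (13.8% of all genes). In AN2 against AN0 it called 1 of the 4, against 3.65% of all genes, and 3 had an unadjusted p under 0.05 (20.4% of all genes). DESeq2 called 0, 0 and 3 of the 4 in these comparisons, against 3.05%, 5.37% and 11.8% of all genes with an adjusted p. Voom called 0, 1 and 3 of the 4, against 4.83%, 24.8% and 27.7% of the genes tested. AN0 and AN2 are both set against the same AN1 libraries, so these comparisons are not independent.

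**Figure D3:**
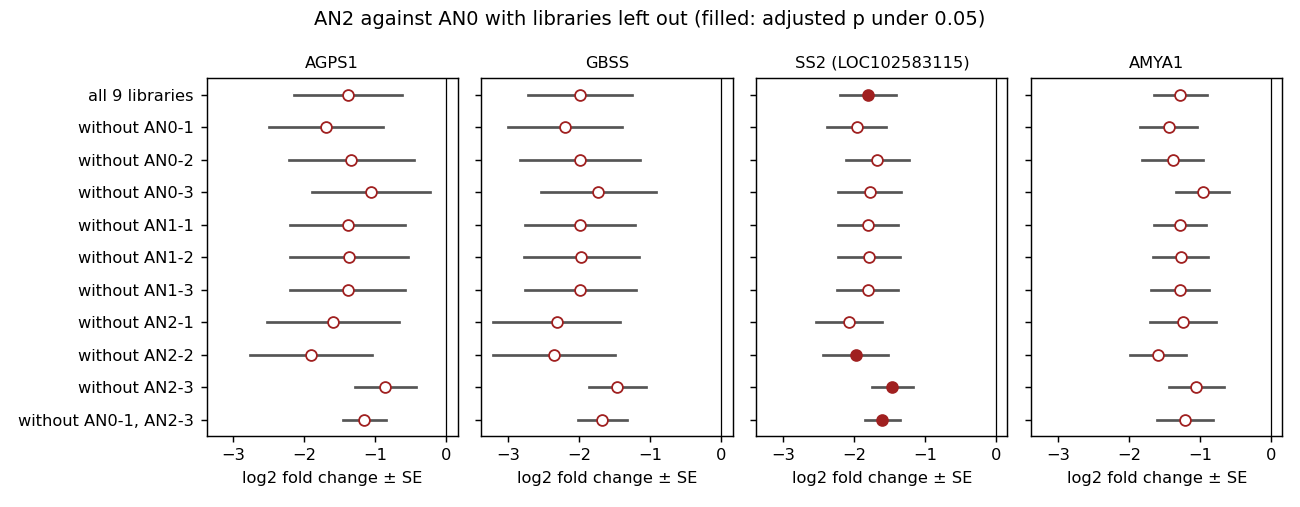
Log2 fold change of AN2 against AN0 (± SE, edgeR) for AGPS1, GBSS, SS2 and AMYA1 with all 9 libraries, without each library in turn, and without AN0-1 and AN2-3 together. Filled points have an adjusted p under 0.05: SS2 is filled with all libraries (-1.81) and in 3 of the 10 fits with libraries left out, and the other 3 genes are open throughout.

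Ratios between genes of the same library do not depend on the scaling of libraries. GBSS over AGPS1 in FPKM came to 1.95, 1.40 and 1.41 under AN0, 0.779, 1.10 and 1.21 under AN1, and 1.09, 0.894 and 1.11 under AN2. Every AN0 library exceeded every library of AN1 and AN2. AN2-3 did not stand apart here, since both genes were low in it.

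SS2 over SS3, the ratio of the synthases that extend amylopectin, behaved likewise. Its values were 1.74, 2.09 and 2.61 with AN0, 1.38, 1.15 and 1.61 with AN1, and 1.47, 1.55 and 1.24 with AN2. Again AN0 did not overlap with AN1 or AN2. For both ratios the exact two-sided permutation test gave p = 0.1 for AN0 against AN1 and for AN2 against AN0, the smallest value that 3 libraries against 3 allow, with an adjusted p of 0.525 over the 21 ratio tests made.

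The remaining ratios between the 4 genes overlapped between all treatments. GBSS over SS2 was 8.002 to 12.0 in AN0, 8.15 to 10.3 in AN1 and 2.503 to 10.04 in AN2, and the lowest value was that of AN2-3. GBSS over AMYA1 was 11.0 to 14.3 in AN0, 4.95 to 12.3 in AN1 and 1.52 to 11.2 in AN2. In AN2-3, then, GBSS and AGPS1 stood low relative to SS2 and AMYA1 of the same library. Of the summed FPKM of GBSS, SS2 and SS3 alone, GBSS took 58.1% in AN2-3 and 82.5% to 89.7% in the other 8 libraries.

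**Figure D4:**
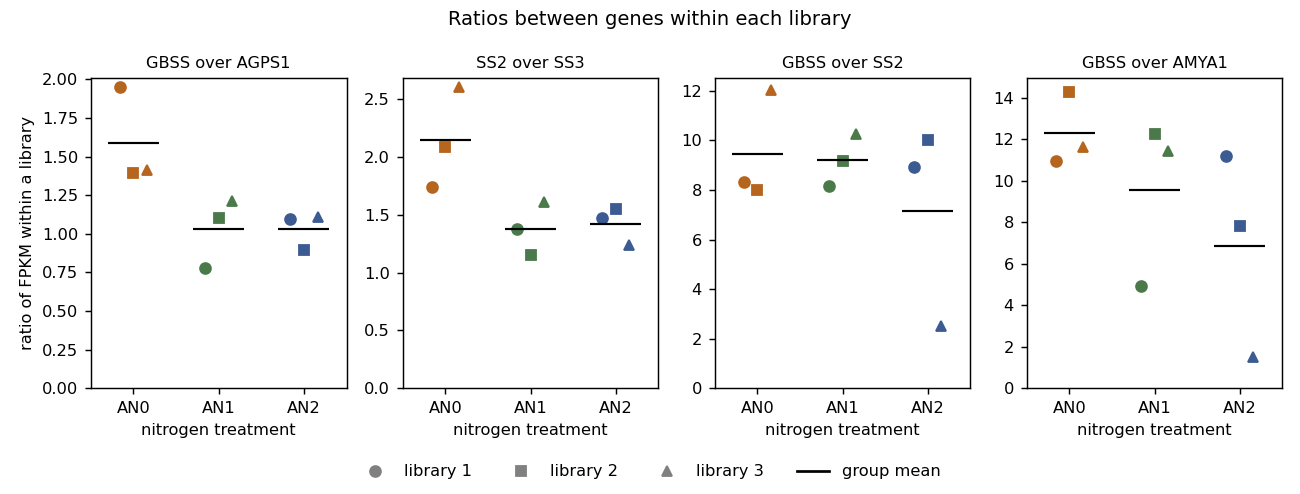
Ratio of FPKM between genes within each library, by treatment, for GBSS over AGPS1, SS2 over SS3, GBSS over SS2 and GBSS over AMYA1, with 1 point per library and a line at the group mean. The first 2 ratios are highest in AN0 with no overlap (1.40 to 1.95 and 1.74 to 2.61), and the last 2 are lowest in AN2-3 (2.503 and 1.52).

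The other starch genes were taken from a list of names, which holds 17 genes with the 4 above. Of these 16 were in the tables and 14 were tested, 9 for synthesis and 5 for breakdown. The list names 1 glucan phosphorylase gene that was not in the tables, and agpS3 and the starch phosphorylase STP-1 were too low to test. STP-1 had 96 counts in AN2-3 and at most 5 elsewhere.

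In AN2 against AN0, 7 of 9 synthesis genes had log2 fold changes below 0, as did 49.6% of all genes tested, with a median of -1.38, against 0.01 over all genes tested. These 9 include AGPS1, GBSS and SS2. Without them, 4 of 6 were below 0, with a median of -1.24. Of the 9, edgeR called 1 lower (SS2), DESeq2 4 lower (GBSS, SS2, SS3 and Sbe-II) and voom 4 lower, and 5 had an unadjusted p under 0.05. Over all genes edgeR called 1.3% lower, DESeq2 5.23% and voom 14.2%, and 20.4% had an unadjusted p under 0.05 in either direction. Sbe-II (LOC102590711), a branching enzyme, had 15.4, 14.8 and 28.0 CPM in AN2, against 36.9, 99.6 and 64.6 CPM in AN0 (log2 fold change -1.79 ± 0.44, edgeR adjusted p = 0.0582). Of the 9 tested synthesis genes it was the only one whose AN2-3 value was the highest of the AN2 libraries on the CPM scale. The genes above 0 were agpS2 (0.23 ± 0.18, edgeR adjusted p = 0.504) and the phosphoglucomutase PGM1 (LOC102579912, 0.19 ± 0.29, 0.765).

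All 5 breakdown genes also lay below 0 in AN2 against AN0, with a median of -0.87 (-0.85 over the 4 without AMYA1). EdgeR called 0 of them, DESeq2 3 lower and voom 4 lower, and 4 had an unadjusted p under 0.05, beside the same shares over all genes as for the synthesis genes. R1 (GWD), the dikinase that phosphorylates starch, stood at 522, 429 and 557 CPM in AN2, against 1057, 914 and 717 CPM in AN0 (log2 fold change -0.83 ± 0.29, edgeR adjusted p = 0.136). R1 in AN2-3 was thus the highest of its group, as was the dikinase gene GWD3 (242 CPM), unlike AGPS1, GBSS, SS2 and AMYA1. In FPKM, R1 overlapped between AN2 and AN0, with 136 FPKM in AN2-3 and 133 FPKM in AN0-3. Over both lists 12 of 14 genes were below 0, and 12 of 14 also without AN2-3, where the median was -0.94 in place of -1.27.

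In AN2 against AN1, 8 of 9 synthesis genes had log2 fold changes below 0 (median -0.83) and 5 of 5 breakdown genes (median -0.65), beside 48.6% of all genes tested and a median of 0.02 over them. Without AGPS1, GBSS, SS2 and AMYA1, 5 of 6 synthesis genes (median -0.53) and 4 of 4 breakdown genes (median -0.53) were below 0. EdgeR called 0 of the 14, against 0.697% of all genes. An unadjusted p under 0.05 was held by 1 gene of each list and by 13.8% of all genes. DESeq2 called 0, and voom called AMYA1 and R1 lower, as it did 10.7% of all genes tested. Smallest in p were the starch synthase SS3 (LOC102577674), with 249, 217 and 101 CPM in AN2, against 312, 441 and 336 CPM in AN1 (log2 fold change -0.94 ± 0.35, edgeR adjusted p = 0.269), and R1 (-0.71 ± 0.29, edgeR adjusted p = 0.310). Without AN2-3, 13 of 14 genes were still below 0, but the median over both lists was -0.38 in place of -0.73.

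In AN0 against AN1, 7 of 9 synthesis genes were above 0 (median 0.47) and 5 of 5 breakdown genes (median 0.52), beside 52.3% of all genes tested and a median of 0.02 over them. Without AGPS1, GBSS, SS2 and AMYA1, 4 of 6 synthesis genes (median 0.38) and 4 of 4 breakdown genes (median 0.40) were above 0. EdgeR called 0 of the 14, against 0.0471% of all genes. An unadjusted p under 0.05 was held by 2 synthesis genes, SS2 and Sbe-II, and by 10.8% of all genes. Sbe-II had 36.9, 99.6 and 64.6 CPM in AN0, against 26.0, 11.4 and 21.4 CPM in AN1 (log2 fold change 1.77 ± 0.44, edgeR adjusted p = 0.199), and it was the 1 gene of the 14 that DESeq2 and voom called, beside 3.05% and 4.83% of all genes. Of the breakdown genes, the smallest p were those of GWD3, a further glucan water dikinase (0.58 ± 0.29, edgeR adjusted p = 0.516), and dpeP, the disproportionating enzyme LOC102595076 (0.92 ± 0.50, edgeR adjusted p = 0.560).

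**Figure D5:**
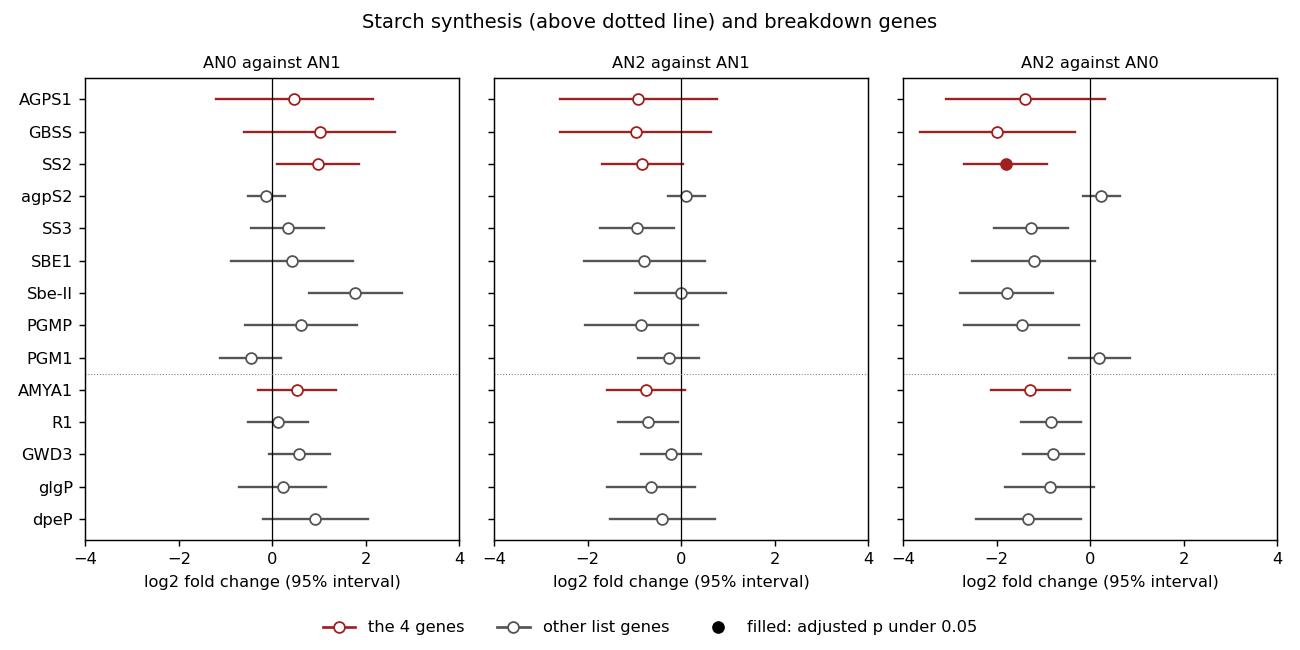
Log2 fold changes with 95% intervals (edgeR) of the 14 tested starch genes in the 3 comparisons, synthesis genes above the dotted line and breakdown genes below it, with AGPS1, GBSS, SS2 and AMYA1 in red. SS2 in AN2 against AN0 (-1.81) is the 1 filled point, which marks an adjusted p under 0.05, and 13 of 14 genes lie below 0 in AN2 against AN1.

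The genes whose profiles were most like those of the 4 were sought among 390 named genes that averaged 5 CPM or more. Likeness was Pearson's r of log2 CPM over the 9 libraries. Among all 14362 genes at that level, the nearest named gene ranked 3rd for GBSS, 13th for SS2, 14th for AMYA1 and 15th for AGPS1. The r values describe the libraries at hand, share the same totals and scaling, and carry no test. For GBSS the nearest were LOC102588225, a divinyl ether synthase of the oxylipin pathway (r = 0.98), the phosphoglucomutase PGMP (LOC102585015, 0.98), which interconverts glucose phosphates, and the branching enzyme SBE1 (LOC102596498, 0.97). For AGPS1 they were SBE1 (0.97), GBSS (0.97) and the Kunitz-type protease inhibitor LOC102577642 (0.96). These values were lower without AN2-3, at 0.94, 0.90 and 0.82 for the genes nearest to GBSS and 0.82, 0.81 and 0.74 for those nearest to AGPS1.

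For SS2 the nearest named genes were GBSS (r = 0.96), PGMP (0.96) and LOC102600490, the protein kinase SnRK2.4 (0.95). These kept values of 0.96, 0.95 and 0.89 over the 8 libraries without AN2-3. AMYA1 had none of the starch genes among its nearest, which were the transcription factor genes BBR/BPC2 (0.93) and STWAAEIRD (0.93) and LOC102589911, named cycl (0.93). STWAAEIRD stood at 34.7, 85.2 and 301 CPM under AN0, 79.4, 36.7 and 74.4 CPM under AN1, and 24.0, 57.4 and 8.80 CPM under AN2, so AN0-3 was its highest library, as for AMYA1. Among the starch genes, SS2 (0.83), GBSS (0.82) and AGPS1 (0.82) were about equally like AMYA1, and without AN2-3 the values were 0.69, 0.73 and 0.80. The lowest value was that of agpS2, at -0.86 over the 9 libraries and -0.93 without AN2-3.

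The correlations of the storage gene patatin with the 4 genes were all lower without AN2-3. Patatin (LOC102605260) had r = 0.93 with AGPS1, 0.82 with GBSS, 0.66 with SS2 and 0.64 with AMYA1 over the 9 libraries. Without AN2-3 these values were 0.55, 0.03, -0.13 and 0.17, and without both AN0-1 and AN2-3 they were 0.49, 0.32, 0.18 and 0.55. In the same gene order and without AN2-3, the protease inhibitor LOC102577642 had 0.74, 0.49, 0.39 and 0.64. KTI-C (LOC102577909) had 0.64, 0.40, 0.32 and 0.48, and KTI-A (LOC102604256) had 0.58, 0.11, 0.01 and 0.21. PIN-II had negative values with all 4 genes over the 9 libraries, from -0.51 with SS2 to -0.30 with AMYA1. Without AN2-3 its values were 0.26 with AGPS1, -0.19 with GBSS, -0.26 with SS2 and 0.02 with AMYA1. Without AN0-1 and AN2-3, the libraries with the lowest storage sums, the log2 fold changes of AN2 against AN0 were -1.16 ± 0.30 for AGPS1, -1.67 ± 0.35 for GBSS, -1.60 ± 0.25 for SS2 and -1.21 ± 0.40 for AMYA1. Their edgeR adjusted p values there were 0.0952, 0.0602, 0.0312 and 0.150 in that order. The part of storage tissue in these differences was not tested.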

How the data were processed

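RNA from stolons was sequenced in 9 libraries. Per the labels' protocols, TRIzol served for RNA extraction and a VAHTS Universal V6 kit for library construction. Per the submitters' processing notes, fastp, HISAT2, HTSeq, R 3.2.0 and DESeq2 were used, with no role or setting named. The genome build, annotation and strand setting were not given in the sources used here, so no coordinates are printed. The authors deposited whole-number counts per gene, not normalized, and an FPKM table. The deposited FPKM equal count over gene length and library total, with a largest relative difference of 1.71e-07.

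Gene names are those of RefSeq for assembly SolTub_3.0, whose table matched 25672 of the gene IDs. No sequence was printed.

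Counts were tested with edgeR 4.0.16 (R 4.3.3): TMM, filterByExpr by treatment (21223 genes kept), 1 robust quasi-likelihood fit with a mean per treatment, and Benjamini-Hochberg adjustment over all genes tested, calling adjusted p under 0.05. Each SE is the fold change divided by the root of F. The test was checked on simulated data. DESeq2 1.42.0, voom and trend fits of limma 3.58.1 on log2(FPKM + 1) and log2(FPKM + 0.1), other scalings and filters, a replicate block and left-out libraries were alternatives. Log2 CPM used a prior count of 2.

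The 4 genes, the lists and the libraries left out were chosen with earlier results of these data known. The starch list took exact names fixed from the labels, completed by hand with 5 other spellings (agpS3, Sbe-II, glgP, STP-1, dpeP). Named from it were called genes and the 2 with the smallest p per list and comparison, and per gene the 3 most alike. PGM1, agpS2, agpS3 and STP-1 are named beyond that rule, for the family shares or as exceptions, after their values were seen.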

Additional observations from a re-analysis of the deposited data

How the results depend on the processing

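The 12 log2 fold changes of AGPS1, GBSS, SS2 and AMYA1 kept their direction in all 20 alternatives. For SS2 in AN2 against AN0 the call was lost when AN1 was left out of the fit (-1.82, edgeR adjusted p = 0.134) and with the replicate block (-1.86, adjusted p = 0.112), and the values without 1 library ran from -2.07 to -1.46. GBSS in AN2 against AN0 passed by DESeq2 (-1.98) and voom (-1.72), AMYA1 in AN2 against AN0 by DESeq2 (-1.28) and voom (-1.22), and AMYA1 in AN2 against AN1 by voom (-0.83). Scaling by library totals moved the median of all genes by 0.20 in AN2 against AN1 and by 0.21 in AN2 against AN0, and SS2 was still called in AN2 against AN0 (-1.62, edgeR adjusted p = 0.0397).

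Genes called over the whole table depended on the setting far more. The counts were 10 in AN0 against AN1, 148 between AN2 and AN1, and 774 between AN2 and AN0. In the same order they were 0, 45 and 119 with the third treatment left out, 656, 1235 and 2726 by DESeq2, 1025, 5254 and 5881 by voom, and 0, 15 and 296 without AN0-1 and AN2-3 together. Scaling by library totals gave 0 for AN0 against AN1, and in AN2 against AN0 it split the calls into 723 higher and 211 lower, where TMM gave 498 higher and 276 lower. Log2(FPKM + 1) gave 418 and 1277 for the comparisons of AN2 with AN1 and AN0, and log2(FPKM + 0.1) gave 335 and 1267. Leaving out 1 library gave 0 to 109 in the first comparison, 0 to 367 in the second and 110 to 1077 in the last. The cause of these shifts was not tested.

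No pairing of libraries by replicate number was seen. Same-numbered libraries of different treatments had correlations of their deviations from -0.47 to 0.08, and 3 of 18 choices fell on the own number. A weak pairing could not be told from none with 3 libraries a treatment. The fit with the replicate block called 0, 5 and 166 genes. With 3 libraries a treatment and a common biological coefficient of variation of 0.417, the number of libraries and their spread limited precision, not sequencing depth, since each of the 4 genes had at least 2787 counts in every library.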
